A study of Mus musculus with 3 samples.

Results

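The genes described here encode the proton pump of the lysosome, the vacuolar ATPase (V-ATPase), and proteins of the lysosomal membrane and lumen, read in Kupffer cells by diet. They are 33 symbols given as a list, of 28692 genes in the files: 16 pump genes (6 of the V0 sector, 8 of the V1 sector, 2 accessory), 6 membrane proteins, 5 hydrolases, 3 lumenal proteins that are not enzymes, and the 3 transcription factors Tfeb, Tfe3 and Mitf. Cathepsins were left out of the list. All 33 symbols were found, and the choice used no measured value. Live liver cells with high F4/80 and intermediate CD11b on their surface were sorted from male mice 8 weeks of age, and their RNA was sequenced cell by cell. A mouse on normal chow was compared with a mouse given the liquid Lieber-DeCarli diet, containing ethanol at 5%, for 3 days and another given it for 10 days. Each diet had 1 mouse and 1 library, so no test between diets was possible, and a diet cannot be told apart from a mouse, a sort or a library. The control ate chow and not an ethanol-free liquid diet, so ethanol cannot be told apart from the liquid feed. The labels give no strain.

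Lysosomes digest what a cell takes up or discards. The V-ATPase keeps them acid: its V1 sector in the cytosol splits ATP and turns a shaft that drives protons through the V0 sector in the membrane. Lumenal hydrolases need that acid to work, and TFEB, TFE3 and MITF switch on many genes of the whole system by binding a short DNA element built on CACGTG. Kupffer cells, the resident macrophages of the liver sinusoids, clear old red cells, bacteria and lipoproteins from portal blood and depend heavily on this compartment.

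The files held 21650747 unique molecular identifiers (UMIs, counts of captured RNA molecules) for chow, 21471782 for 3 days and 16538895 for 10 days. Barcodes with at least 1000 UMIs, at least 300 genes and at most 10% mitochondrial UMIs numbered 2767, 4061 and 3014, against an average of 3000 to 5000 cells stated in the labels. Of these, 2429 (87.8%), 3642 (89.7%) and 2660 (88.3%) fell in 5 clusters called Kupffer-like, in which all 14 markers of the Kupffer list (Clec4f, Cd5l, Timd4, Vsig4 and others) were above 10 CPM in each library. Levels are in CPM: the UMIs of a gene summed over those cells and scaled to the same total in every library. The summed level of that marker list was 35418 to 37299 CPM, against 31 to 103 CPM for the T and NK and the B and plasma lists and 956 to 1315 CPM for the endothelial and hepatocyte lists. The highest list of another cell type was that of conventional dendritic cells, at 2237, 2177 and 1765 CPM, with 5 of its 12 markers above 10 CPM in each library. The part of these other transcripts in the results was not tested. The Kupffer list was itself used to name the clusters. Of its 14 markers, 13 or 14 were also above 10 CPM in endothelial-like cells and 13 in T and NK-like cells. Its summed level in these classes was lower, at 6068 to 8535 CPM and 2394 to 2885 CPM. Any 2 libraries shared 13 to 20 barcodes. Gene positions below are those of GENCODE vM21 on GRCm38, printed as chromosome, start and end of the whole gene, exons and introns together. The depth of the cells differed between the diets: the median Kupffer-like cell of the chow library held 4587 UMIs, that of the 3-day library 3035 and that of the 10-day library 3041.5. Mitochondrial UMIs were 5.12%, 5.21% and 6.30% of the Kupffer-like total, and ribosomal protein genes 13.7%, 13.5% and 11.5%.

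**Figure D1:**
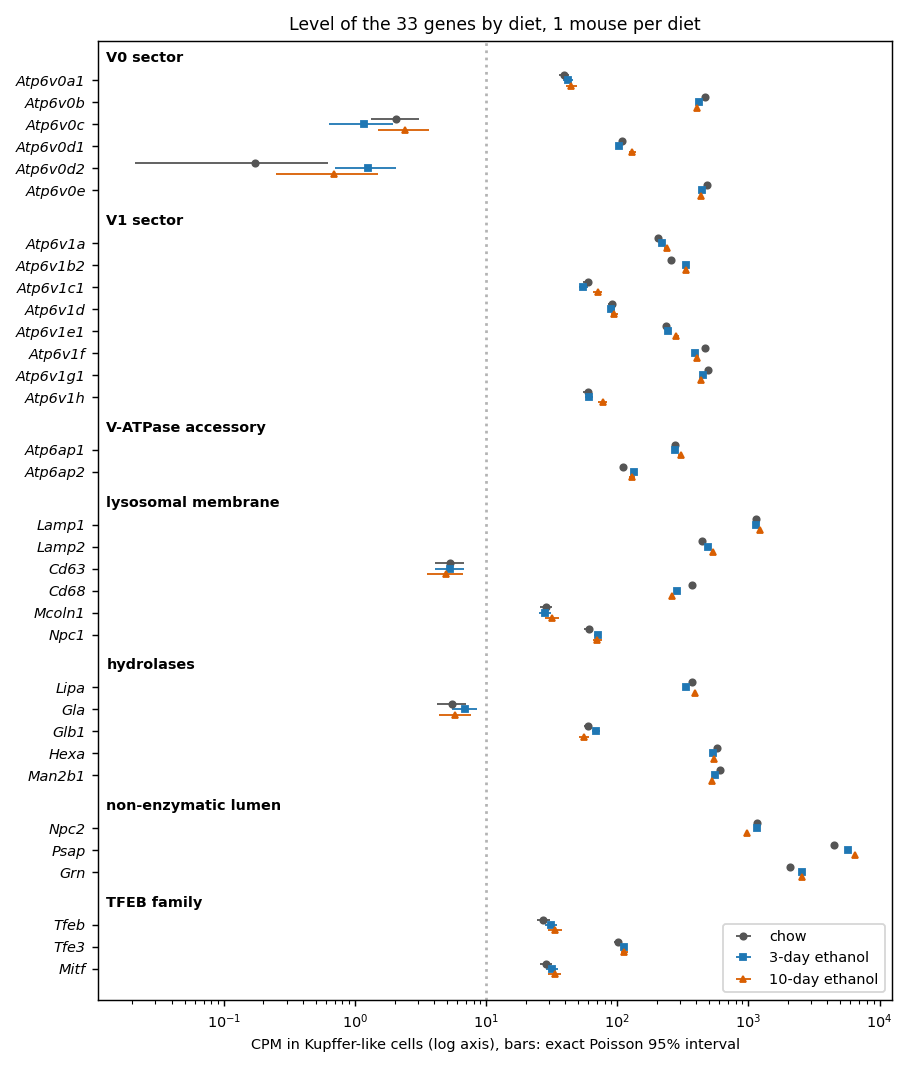
Level of each of the 33 genes in Kupffer-like cells, in CPM on a log axis, grouped by role. Circles are the chow library, squares 3-day ethanol and triangles 10-day ethanol, and bars are exact Poisson 95% intervals for counting error. The dotted line at 10 CPM separates the 29 measured genes from Atp6v0c, Atp6v0d2, Cd63 and Gla.

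The promoters of several of these genes carry the element that the TFEB family binds, and the stretches that hold it are shown because these factors are themselves on the list. Promoter windows from 250 bases before to 50 after the start site were taken from RefSeq (GRCm38.p6), which gave a window for 27 of the 33 genes. The core CACGTG, which reads the same on both strands, was present in 8 of these 27 genes (29.6%). It was present in 8.09% of all 27025 genes with a window and in 8.91% of the protein-coding ones. The longer TCACGTGA, which contains the core, was present in 5 (18.5%), against 1.12% of all and 1.41% of protein-coding genes. A match describes letters in a window and does not show binding. In the lines that follow, the longer element is in capitals. The windows come from Atp6v0d1 (chr8:105566052-105566077, minus strand), Atp6v0e (chr17:26676389-26676414, plus strand), Atp6v1a (chr16:44139375-44139400, minus strand) and Mcoln1 (chr8:3500464-3500489, plus strand).
Atp6v0d1: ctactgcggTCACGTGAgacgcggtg
Atp6v0e: gcgcgccgaTCACGTGAgcctctgtt
Atp6v1a: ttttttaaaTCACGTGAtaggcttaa
Mcoln1: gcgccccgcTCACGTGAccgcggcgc
Gla held the longer element at 2 places and Mcoln1 a further core. Lamp1 held 4 cores, all within the 90 bases before its start site (chr8:13159071-13159160, plus strand), shown with the cores in capitals.
Lamp1: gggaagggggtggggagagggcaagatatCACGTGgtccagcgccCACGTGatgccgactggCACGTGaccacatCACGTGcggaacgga
Atp6v0b held 2 cores and Glb1 1. Of the 7 measured genes with a core, 4 were higher and 3 lower at 10 days than in chow, with ratios from 0.871 to 1.203. Of the 17 measured genes whose window lacked it, 12 were higher and 5 lower, from 0.708 to 1.46. Among all measured genes 60% were higher and 40% lower.

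By diet, the list as a whole differed little. The 33 genes together took 1.49%, 1.65% and 1.73% of Kupffer-like UMIs in the chow, 3-day and 10-day libraries. Psap and Grn, a pair of lumenal proteins, made up 0.656%, 0.834% and 0.908% of the UMIs, and the remaining genes of the list 0.833%, 0.814% and 0.820%. The 16 pump genes stood at 0.334%, 0.325% and 0.339%. The summed level of the pump was 0.973 of chow at 3 days (95% interval 0.960 to 0.987) and 1.01 at 10 days (0.999 to 1.03). Here and below, a ratio is a level divided by the level in the other library. Its 95% interval is an exact conditional binomial one that covers counting error only, not differences between mice.

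A gene was called measured when its mean over the 3 libraries reached 10 CPM, which 29 of the 33 genes and 7517 genes in all did. At 3 days against chow, 2 of the 29 were more than 25% higher (Atp6v1b2 and Psap), as were 14.4% of all measured genes, and 1 had a ratio below 0.8 (Cd68), as had 8.47% of all. At 10 days against chow, 3 were more than 25% higher (Atp6v1b2, Atp6v1h and Psap) against 18.2% of all genes, and Cd68 alone was below 0.8 against 10.6%. Between 10 and 3 days, Atp6v0d1, Atp6v1c1 and Atp6v1h were more than 25% higher against 11.5% of all, and none was below 0.8 against 9.11%. None of the 29 was above 1.5 or below its inverse in any of the 3 comparisons. Of all measured genes 3.3% were above and 1.3% below at 3 days, 3.95% and 2.41% at 10 days, and 2.38% and 1.94% between 10 and 3 days. Without a limit of size, 17 of the 29 genes were above chow and 12 below at 3 days (56.2% and 43.8% of all measured genes), and 20 above and 9 below at 10 days (60% and 40%). Between 10 and 3 days 19 were above and 10 below (54% and 46%). The median log2 ratio of the 29 genes (with 1 CPM added to both levels) was 0.02 at 3 days, 0.17 at 10 days and 0.07 between the ethanol libraries, beside 0.04, 0.07 and 0.02 for all measured genes. Both chow comparisons use the same chow library, so they are not independent of each other.

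**Figure D2:**
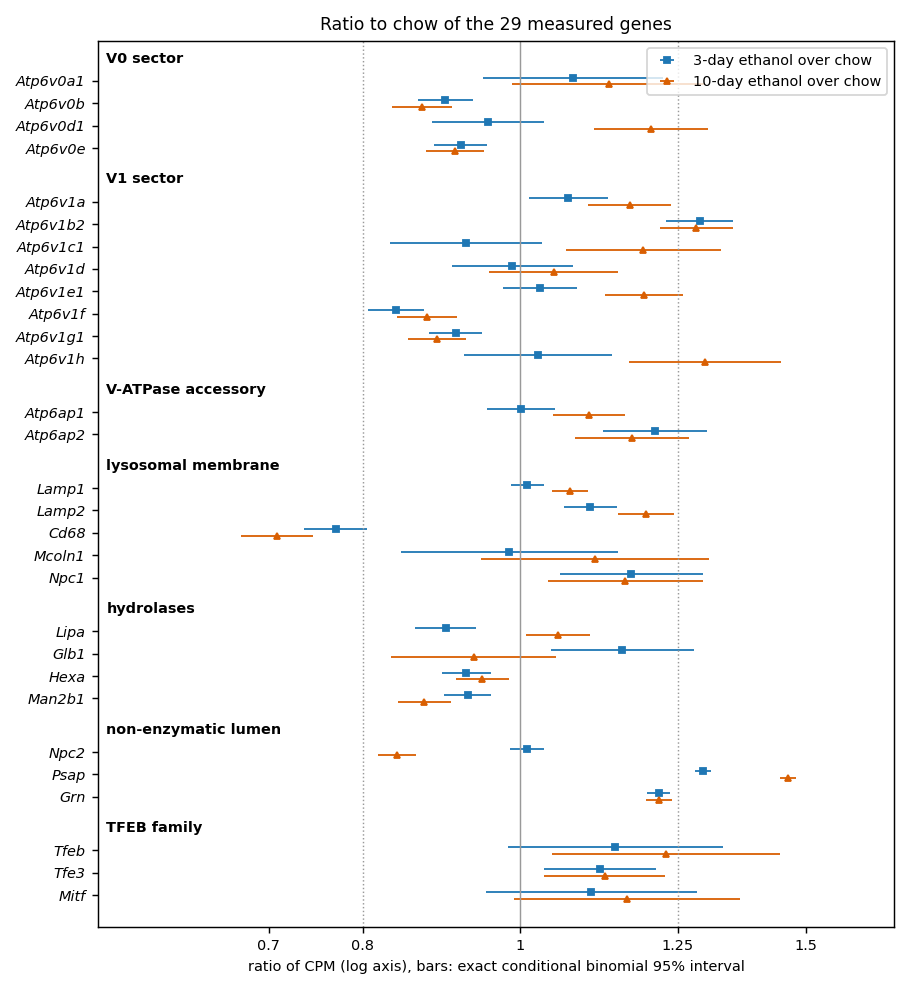
Ratio of CPM to chow for the 29 measured genes, on a log axis, grouped by role, with squares for 3-day and triangles for 10-day ethanol and bars for exact conditional binomial 95% intervals. Psap lies farthest to the right (1.30 and 1.46) and Cd68 farthest to the left (0.770 and 0.708), and the dotted lines mark a level 25% higher and a ratio of 0.8.

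In the V0 sector, which forms the proton path through the membrane, the 4 measured genes did not move together. Atp6v0d1, the subunit that joins the ring of V0 to the shaft of V1 (chr8:105524465-105566047), stood at 108 (95% interval 102 to 114) CPM in chow, 103 (97.8 to 109) at 3 days and 130.2 (123 to 138) at 10 days. The 10-day library was the highest, and its interval did not overlap the others. Its ratio was 0.955 (0.883 to 1.03) at 3 days, 1.203 (1.11 to 1.30) at 10 days and 1.26 (1.16 to 1.37) between 10 and 3 days. Atp6v0e, a small membrane subunit and the most counted of the sector (chr17:26663231-26699647), went the other way. It measured 479.9 (95% interval 467 to 493) CPM in chow, 441 (429 to 453) and 438 (424 to 452), so chow was higher than both ethanol libraries, which overlapped each other. With the clusters of Kupffer-like cells given equal weight, its ratio at 10 days turned from 0.912 to 1.02. Atp6v0b, a subunit of the proton-carrying ring, was likewise at 0.899 and 0.871 of chow. Atp6v0a1, which holds the channels that lead protons to the ring, was at 39.3, 42.4 and 44.6 CPM with overlapping intervals.

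The other V0 genes were below 10 CPM. Atp6v0c, the main ring subunit, was counted at 2.06, 1.16 and 2.40 CPM, a very low level for an essential subunit. Of the 60-base stretches in the last 500 bases of its transcripts, 34.8% also occur in the pseudogene Atp6v0c-ps2, and reads that fit more than 1 gene may not have been counted, so its level is uncertain. Atp6v0d2, a form of the d subunit known from osteoclasts and some macrophages, had 2, 15 and 6 UMIs in all Kupffer-like cells of the 3 libraries.

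In the V1 sector, which splits ATP, the 8 genes divided by size of change and by subunit. Atp6v1b2, the B subunit that alternates with A around the ATP-splitting head (chr8:69088646-69113711), was at 258 (95% interval 249 to 268) CPM in chow, 333 (323 to 344) at 3 days and 332 (319.8 to 344) at 10 days. Both ethanol libraries lay above chow and overlapped each other. The ratios were 1.29 (1.23 to 1.35) and 1.28 (1.22 to 1.35). At 10 days Atp6v1b2 was at 1.03 of chow with equal weights and ran from 0.983 to 1.08 over 4 clusters. Its partner Atp6v1a, the catalytic A subunit, was at 1.07 and 1.17 of chow, and on the other side of 1 (0.936 and 0.973) with equal weights.

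Atp6v1h and Atp6v1c1, which sit where V1 docks on V0 and take part in the reversible joining of the sectors, were highest at 10 days. Atp6v1h (chr1:5070018-5162529) was at 59.5 (95% interval 55.1 to 64.1) CPM in chow, 61.0 (56.7 to 65.6) at 3 days and 77.3 (71.6 to 83.4) at 10 days, so that only the 10-day library stood apart. Its ratio was 1.30 (1.17 to 1.45) against chow and 1.27 (1.14 to 1.41) against 3 days. Atp6v1c1 (chr15:38661933-38692446) was at 59.4 (95% interval 55.1 to 64.0), 55.0 (50.9 to 59.4) and 70.7 (65.3 to 76.5) CPM, with ratios of 1.19 (1.07 to 1.33) against chow and 1.28 (1.15 to 1.44) against 3 days. With a mitochondrial limit of 5% both turned, to 0.878 and 0.915, and with equal weights the ratio to chow was 0.976.

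The stalk subunits of V1 split. Atp6v1g1, a peripheral stalk subunit (chr4:63544772-63550750), was at 489.7, 447 and 435 CPM, highest in chow, and had ratios of 0.913 (0.879 to 0.947) and 0.889 (0.853 to 0.926). Its stalk partner Atp6v1e1 was at 236, 243 and 282 CPM, highest at 10 days (1.19 of chow). Of the central shaft, Atp6v1f was at 0.839 and 0.876 of chow and Atp6v1d at 0.989 and 1.05. A processed pseudogene shares 13.7% of the end stretches of Atp6v1f, whose level is less certain for that reason. The genes of 1 complex thus spanned ratios from 0.839 to 1.29 at 3 days, with 0.973 for their sum. At 3 days 7 of the 14 measured pump genes were above chow and 7 below, and at 10 days 10 were above and 4 below, beside the shares of all measured genes given above.

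The accessory proteins, which help to assemble and direct the pump, were both above chow at 10 days when all Kupffer-like cells were summed. Atp6ap1 (chrX:74297097-74304721) was at 276, 276 and 304 CPM, nearly equal in chow and at 3 days, and 1.10 (1.05 to 1.16) of chow at 10 days. Within the 4 clusters that could be compared with chow, however, Atp6ap1 at 10 days was below chow in each (0.793 to 0.925), and it was at 0.874 with equal weights. Atp6ap2, also known as the prorenin receptor, was at 110.3, 134 and 129 CPM and was above chow already at 3 days (1.21 (1.12 to 1.30)). At 10 days it ran from 0.986 to 1.11 of chow over the clusters.

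Among membrane proteins, Lamp1 and Lamp2 are the heavily glycosylated proteins that line the inside of the lysosomal membrane. Lamp1 (chr8:13159161-13175338) was at 1139 (95% interval 1119.6 to 1158) CPM in chow, 1151 (1132 to 1170.1) at 3 days and 1223 (1199.7 to 1246) at 10 days, a ratio of 1.07 (1.05 to 1.10) for the last against chow. Lamp2, which also serves chaperone-mediated autophagy, was at 446, 493 and 534 CPM, with ratios of 1.10 (1.06 to 1.15) and 1.196 (1.15 to 1.24). With equal weights of the clusters both lay below chow at 10 days, Lamp1 at 0.977 and Lamp2 at 0.963.

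Cd68, the macrophage relative of the Lamp proteins also called macrosialin (chr11:69664213-69666153), had the lowest ratio to chow of the 29 measured genes. It was at 368 (95% interval 358 to 379.7) CPM in chow, 284 (274 to 293) at 3 days and 261 (250.4 to 272) at 10 days, and none of the 3 intervals overlapped. Its ratios to chow were 0.770 (0.736 to 0.805) and 0.708 (0.673 to 0.745). Between 10 and 3 days the pooled ratio was 0.920 (0.872 to 0.970), but its side of 1 was not stable. It turned to 1.07 with equal weights of the clusters and to 1.09 (0.985 to 1.19) with the mitochondrial limit of 5%. Only 1 of the 5 Kupffer-like clusters had less Cd68 at 10 days than at 3 days. With every cell thinned to 1500 UMIs, Cd68 was seen in 36.8, 29.6 and 28.7% of Kupffer-like cells, and in 2.61, 4.44 and 6.08% of T and NK-like cells, which should lack it. Without thinning, the Kupffer-like shares were 67.5, 49.8 and 47.9%. The thinned Kupffer-like cells numbered 2315, 3324 and 2428 (114, 318 and 232 shallower cells left out), and the thinned T and NK-like cells 115, 90 and 148. Before thinning, and with the cells left out included, the median depths were 4587, 3035 and 3041.5 UMIs in Kupffer-like cells. In T and NK-like cells they were 3538, 2614.5 and 2448 UMIs. The T and NK-like share stands as the background for the Kupffer-like one.

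Npc1 and Npc2 hand cholesterol out of the lysosome, Npc2 in the lumen and Npc1 in the membrane. Npc1 was at 60.4, 70.8 and 70.1 CPM, above chow in both ethanol libraries (1.17 (1.06 to 1.30) and 1.16 (1.04 to 1.30)). In cells of 1000 to 2000 UMIs it was at 0.942 (0.613 to 1.49) and 0.799 (0.503 to 1.30), with intervals that included 1. Its levels were 76.7, 77.9 and 71.6 CPM in cells of 2000 to 4000 UMIs. In cells of 4000 or more they were 55.2, 60.5 and 68.0 CPM, lowest in chow. Mcoln1, the lysosomal calcium channel, was at 28.7, 28.3 and 31.9 CPM with overlapping intervals. Cd63, a tetraspanin of late endosomes and lysosomes, was counted at only 5.31, 5.32 and 4.90 CPM. Since 43.9% of the end stretches of its transcripts also occur in the pseudogene Cd63-ps, its level is uncertain.

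Of the 4 measured hydrolases, 3 were below chow and Glb1 above at 3 days, and 3 were below and Lipa above at 10 days, where 43.8% and 40% of all measured genes were below. Man2b1, the lysosomal alpha-mannosidase that trims sugar chains (chr8:85083270-85098282), was at 602 (95% interval 588 to 616) CPM in chow, 559 (545 to 572) at 3 days and 526 (510.5 to 541) at 10 days. The levels descended without overlap, and the ratios were 0.928 (0.898 to 0.960) and 0.873 (0.841 to 0.906). Hexa, the alpha chain of beta-hexosaminidase, was at 0.927 and 0.948 of chow. Lipa, the acid lipase that frees cholesterol and fatty acids from lipoproteins taken up, was at 373, 336 and 394 CPM, lowest at 3 days, with 1.17 (1.12 to 1.23) between 10 and 3 days. Glb1, the beta-galactosidase, did the reverse: 59.9, 69.3 and 56.1 CPM, highest at 3 days, and 0.810 (0.723 to 0.907) between 10 and 3 days. The same-strand gene Tmppe overlaps Glb1, so some reads may be shared. Gla, the alpha-galactosidase, was below 10 CPM (5.49, 6.90 and 5.82).

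The lumenal proteins that are not enzymes held the largest values. Psap, prosaposin, is cut into the saposins that present lipids to the hydrolases (chr10:60277627-60302597). It was at 4467 (95% interval 4429 to 4506) CPM in chow, 5792 (5749 to 5835) at 3 days and 6530.0 (6477 to 6584) at 10 days. Both ethanol libraries lay above chow and the 10-day library lay above the 3-day one, with no overlap of intervals. The ratios were 1.30 (1.28 to 1.31), 1.46 (1.44 to 1.48) and, between 10 and 3 days, 1.13 (1.11 to 1.14). At this level nearly every cell holds a UMI: in thinned cells 99.4, 99.8 and 99.8% had one, and 63.5, 62.2 and 62.8% of T and NK-like cells did at 563, 603 and 673 CPM.

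Grn, progranulin, which travels to the lysosome with prosaposin, was at 2091, 2545 and 2548 CPM. Both ethanol libraries stood above chow (1.22 (1.197 to 1.24) and 1.22 (1.196 to 1.24)) and did not differ from each other beyond counting error (1.00 (0.984 to 1.02)). Within clusters Grn stayed above chow at 3 days (1.07 to 1.09), while at 10 days it was above chow in 1 of 4 (0.897 to 1.06) and at 0.984 with equal weights. Npc2 (chr12:84754562-84773152) was at 1159.9 (95% interval 1140.4 to 1179.6) CPM in chow, 1171 (1152 to 1191) at 3 days and 974 (953 to 995) at 10 days. Here the 10-day library alone was low, at 0.840 (0.817 to 0.863) of chow and 0.832 (0.809 to 0.854) of 3 days. Grn, Npc2, Lipa and Glb1 were picked out for this account after their values had been seen.

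In the pooled cells the 3 members of the TFEB family were each a little above chow, with wide intervals, but not at every depth. Tfe3, the most counted (chrX:7762560-7775202), was at 100.5 (95% interval 94.8 to 106) CPM in chow, 112 (107 to 119) and 113 (106 to 121), with ratios of 1.12 (1.03 to 1.21) and 1.13 (1.03 to 1.23). Tfeb was at 27.3, 31.2 and 33.5 CPM and 1.23 (1.05 to 1.45) of chow at 10 days. Mitf was at 28.7, 31.8 and 33.4 CPM and 1.16 (0.992 to 1.37). Tfe3 at 10 days was at 0.795 (0.581 to 1.10) of chow in cells of 1000 to 2000 UMIs. It was at 1.06 in those of 2000 to 4000 and 0.998 (0.879 to 1.13) in those of 4000 or more. In the same order Tfeb was at 0.581 (0.268 to 1.31), 1.17 and 1.26 and Mitf at 1.91, 0.965 and 1.26. The side of 1 thus differed between bands for all 3, but the values of Tfe3 and Tfeb below 1 were not beyond counting error. Within clusters Tfe3 at 10 days was above chow in 1 of 4 (0.808 to 1.03). These factors are controlled largely by their place in the cell, which RNA counts do not show. In the few T and NK-like cells Tfeb was at 31.5, 10.7 and 31.8 CPM and Mitf at 4.50, 3.57 and 2.45 CPM.

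The share of UMIs taken by the list differed more between shallow and deep cells of 1 library than between the diets. Within each library, Kupffer-like cells were split into those of 1000 to 2000, 2000 to 4000 and 4000 or more UMIs, a split chosen after the data had been seen. Together the 33 genes took 2.08%, 1.77% and 1.40% of the UMIs in these bands of the chow library, 2.14%, 1.75% and 1.44% at 3 days and 2.16%, 1.84% and 1.52% at 10 days. Cells of 4000 or more UMIs were 60.1% of the Kupffer-like cells in chow but 28.9% at 3 days and 27.7% at 10 days. Deep cells also held more ribosomal protein UMIs (14.5% against 8.63% in shallow cells of chow) and fewer mitochondrial ones (4.86% against 6.56%). Whether depth marks larger cells, another state or better captured RNA was not tested.

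The pattern by depth recurred in the 3 mice. The level in deep cells over that in shallow cells was below 0.8 in each library for 12 of the 29 genes: Psap, Grn, Lamp2, Tfe3, both accessory genes, Atp6v0a1 and 5 V1 genes (Atp6v1a, Atp6v1b2, Atp6v1c1, Atp6v1e1 and Atp6v1h). It was more than 25% above 1 in each library for Cd68 and Lipa alone. In single libraries 5, 3 and 3 of the 29 were, against 23.7%, 19.1% and 21.3% of all measured genes. Over all measured genes the ratio was below 0.8 for 42.3%, 43.9% and 37.5% in the 3 libraries, against 16, 14 and 13 of the 29. The share of all measured genes that passed either limit in all 3 libraries at once was not counted. A lower level in deep cells was thus common among all measured genes. Psap had ratios of 0.431, 0.447 and 0.515 in the chow, 3-day and 10-day libraries. Grn had 0.591, 0.652 and 0.694, and Cd68 had 2.58, 2.96 and 3.18. Npc2 (0.986, 0.970 and 0.897), Lamp1 (0.981, 0.904 and 1.01) and Atp6v0d1 (0.886, 0.893 and 0.941) were nearly level across depth.

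**Figure D3:**
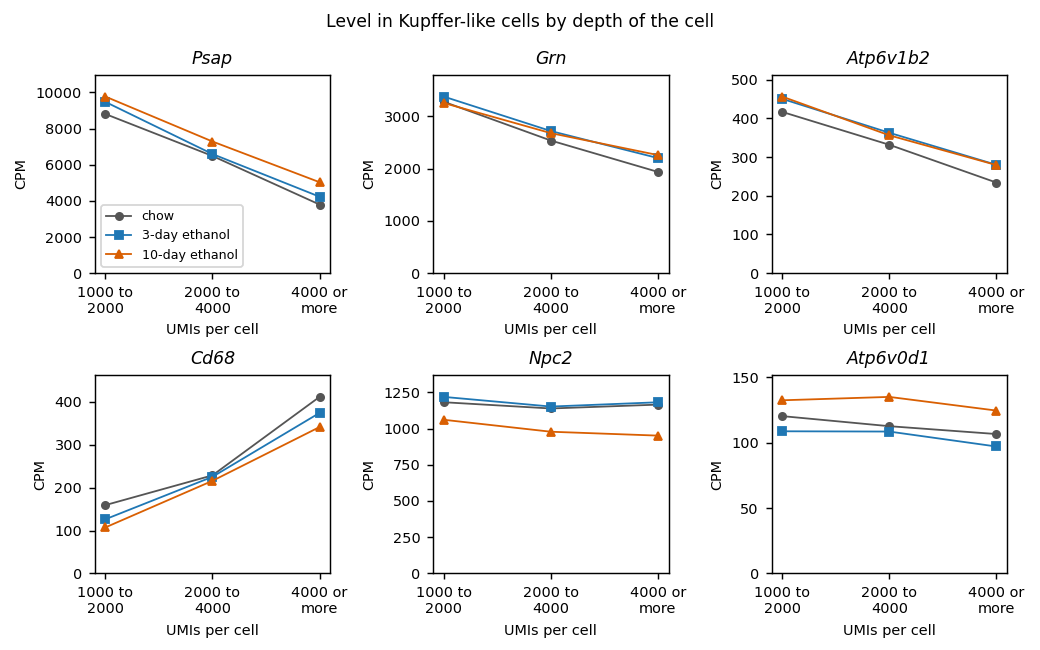
CPM of 6 genes in Kupffer-like cells of 1000 to 2000, 2000 to 4000 and 4000 or more UMIs, with circles for chow, squares for 3-day and triangles for 10-day ethanol. Psap, Grn and Atp6v1b2 descend with depth and Cd68 climbs in all 3 libraries, while Npc2 and Atp6v0d1 stay nearly level. The 10-day library lies below the others for Npc2 and Cd68 and above them for Atp6v0d1 and Psap.

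For Psap, Cd68, Grn and Atp6v1b2 the differences from chow were smaller at matched depth in most bands, while the list as a whole was divided. At 3 days 14, 18 and 17 of the 29 genes lay nearer to 1 in the bands of 1000 to 2000, 2000 to 4000 and 4000 or more UMIs than in all cells, and at 10 days 16, 24 and 18 did. Between 10 and 3 days 11, 15 and 10 did. In cells of 1000 to 2000, 2000 to 4000 and 4000 or more UMIs, Psap was at 8805, 6484 and 3798 CPM in chow, 9475, 6592 and 4232 at 3 days and 9771, 7285 and 5035 at 10 days. The ratio of Psap at 3 days was therefore 1.08, 1.02 and 1.11 in the 3 bands, and at 10 days 1.11, 1.12 and 1.33, where the pooled ratios were 1.30 and 1.46. The 10-day ratio was highest in the deepest cells (1.33 (1.30 to 1.35)). Cd68 was at 159, 229 and 412 CPM in chow, 126, 225 and 374 at 3 days and 107, 216 and 341 at 10 days, which gave 0.793, 0.985 and 0.909 at 3 days and 0.674, 0.944 and 0.829 at 10 days. In the middle band the intervals of Cd68 included 1 (0.985 (0.889 to 1.09) and 0.944 (0.847 to 1.05)). Atp6v1b2 gave 1.08, 1.09 and 1.196 at 3 days and Grn 1.03, 1.07 and 1.14. At 10 days Atp6v1b2 was at 456, 356 and 279 CPM in the 3 bands, against 417, 332 and 234 in chow. Grn was at 3253, 2677 and 2258 CPM, against 3277, 2536 and 1936 in chow.

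Counted over the list, no gene was more than 25% higher in the middle band in either comparison with chow, where 11.8% of all measured genes were in each. Below 0.8 there were Atp6v1c1 at 3 days (0.767 (0.633 to 0.931)) and Glb1 at 10 days (0.798 (0.653 to 0.977)), against 14.4% and 12.8% of all. In cells of 4000 or more UMIs, Psap, Atp6v1h (1.29 (1.11 to 1.497)), Tfeb (1.26 (1.01 to 1.57)) and Mitf (1.26 (1.01 to 1.56)) were more than 25% above chow at 10 days, where 15.1% of all measured genes were. In cells of 1000 to 2000 UMIs Atp6v1h was at 0.991 and Tfeb at 0.581 (0.268 to 1.31), on the other side of 1. These shallow cells held few counts of the rarer genes. At 3 days 2 of the 29 were more than 25% higher there and 3 below 0.8 (27.9% and 24.8% of all measured genes), and at 10 days 3 and 6 (25.7% and 26.4%). The 6 were Atp6v1g1, Cd68, Mcoln1, Npc1, Tfeb and Tfe3.

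For Npc2 and Atp6v0d1 the 10-day library lay on the same side of both others at every depth. The same was true of Psap, Lamp2 and Atp6v1e1, which were highest at 10 days, and of Cd68 and Man2b1, which were lowest. Lipa at 10 days was likewise above both others at every depth, at 322, 395 and 408 CPM against 296, 355 and 381 in chow. In cells of 1000 to 2000 UMIs, of which chow held 207, the ratios of Npc2 and Atp6v0d1 to chow were not beyond counting error. Nor was that of Atp6v0d1 to 3 days in this band. Npc2 at 10 days was at 0.898, 0.859 and 0.816 of chow and 0.870, 0.849 and 0.805 of 3 days in the 3 bands. Atp6v0d1 at 10 days was at 1.10, 1.199 and 1.17 of chow and 1.22, 1.24 and 1.28 of 3 days. Lipa was at 1.19, 1.16 and 1.19 between 10 and 3 days. In the 5 Kupffer-like clusters, which were built without these genes, the ratio of Npc2 between 10 and 3 days ran from 0.840 to 0.952 and that of Lipa from 1.19 to 1.45, each on 1 side of 1 throughout. Atp6v0d1 ran from 0.995 to 1.62. Against chow, over 4 clusters, Npc2 at 10 days ran from 0.843 to 0.911, while Atp6v0d1 (0.909 to 1.33) and Lipa (0.969 to 1.49) lay on both sides of 1.

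**Figure D4:**
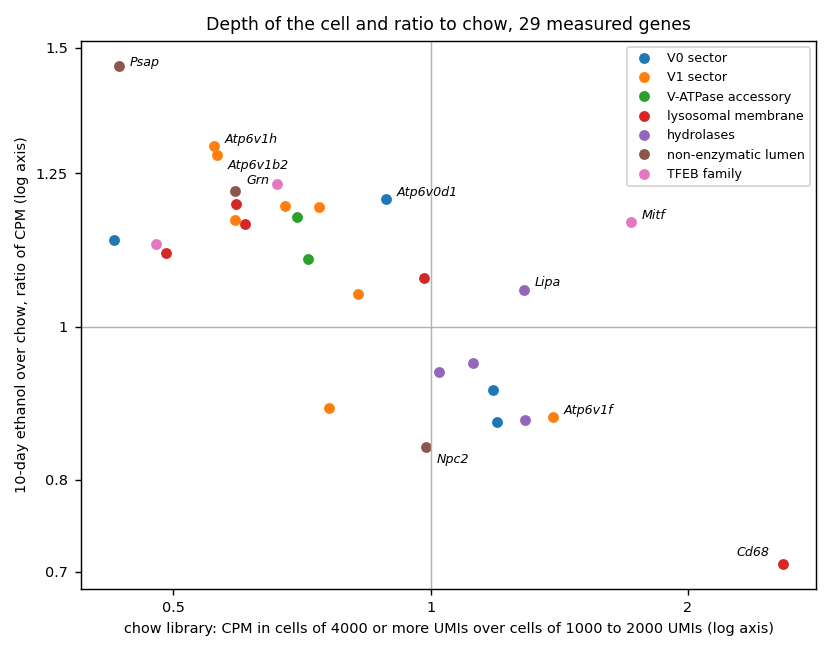
For each of the 29 measured genes, the level in deep over shallow cells of the chow library (horizontal, log axis) against the ratio at 10 days to chow in all Kupffer-like cells (vertical, log axis), coloured by role. Psap lies at the upper left and Cd68 at the lower right, while Npc2 and Atp6v0d1 lie apart from the slope near 1 on the horizontal axis.

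Across the 29 genes the ratio at 10 days was lower the more a gene's level climbed with depth. Spearman's rho was -0.71 at 10 days and -0.67 at 3 days, beside -0.48 and -0.31 across all 7517 measured genes. These are descriptions across genes that share the same cells and the chow library on both axes, and genes are not replicates. The mix of clusters moved with diet too. Cluster 2, of deep cells (median 5147 UMIs), held 1543 of the 2429 chow cells and only 374 of the 2660 cells at 10 days. Cluster 0, of shallow cells (2025.5 UMIs), held 518 and 1145. Cluster 3 was mostly the 3-day library (1353 of 1557 cells) and cluster 1 mostly the 10-day library (989 of 1395), so neither can be told apart from its library. When the clusters were given equal weight, Psap at 10 days was at 1.04 of chow and Cd68 at 0.971, and Psap was at 0.984 between 10 and 3 days. Over 4 clusters Psap at 10 days ran from 0.947 to 1.12 of chow and Cd68 from 0.862 to 1.18. Each was on its pooled side of 1 in 3 of the 4.

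**Figure D5:**
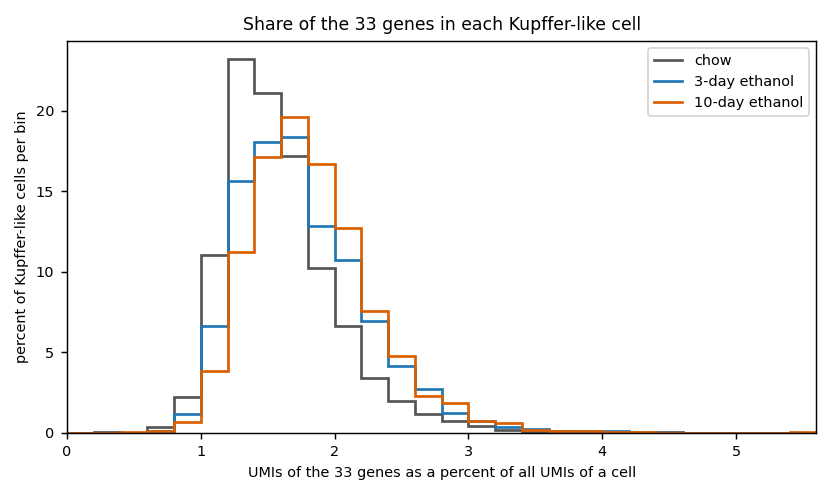
Share of each Kupffer-like cell's UMIs that came from the 33 genes (horizontal, percent) against the percent of cells in each bin of 0.2 (vertical), 1 line per diet. The medians were 1.52% in chow, 1.69% at 3 days and 1.78% at 10 days. The distributions overlap over most of their width.

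Cell by cell, the middle share taken by the list was 1.52% in chow (10th to 90th percentile 1.16% to 2.14%), 1.69% at 3 days (1.24% to 2.39%) and 1.78% at 10 days (1.31% to 2.43%). The spread within each mouse was wider than the distance between the mice. In T and NK-like cells the median was 0.311% to 0.320%, and in endothelial-like cells 0.727% to 0.755%. The clusters were not built on these genes, but a class against the rest is a description.

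Other genes of the lysosome, taken from 6 lists, gave a frame for the 33. The paralogues of the pump subunits came first. Tcirg1, the form of the a subunit known from osteoclasts and macrophages, was at 118, 102 and 147 CPM, lowest at 3 days and highest at 10 days. Its ratios were 0.862 (0.797 to 0.931), 1.24 (1.15 to 1.34) and 1.44 (1.33 to 1.56), and between 10 and 3 days it was at 1.42, 1.41 and 1.48 in the 3 depth bands. Atp6v0d1 and Atp6v1c1 had the same order of libraries, with smaller ratios. Atp6v0a2 was at 28.4, 28.3 and 31.6 CPM with overlapping intervals. Atp6v0e2 had 2, 9 and 6 UMIs, and Atp6v1b1 and Atp6v1c2, known from kidney and other specialised epithelia, had 0 UMIs in each library, which allows at most 0.257, 0.249 and 0.342 CPM at 3 UMIs. Of 9 measured genes among 19 other subunits and assembly factors, none was more than 25% higher or below 0.8 at 3 days, and at 10 days Rogdi alone was below 0.8.

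Of 44 measured other hydrolases and activators, 29 were above chow and 15 below at 3 days, and 27 and 17 at 10 days. Of all measured genes 56.2% were above and 43.8% below at 3 days, and 60% and 40% at 10 days. Of the 44, 4 were more than 25% higher than in chow and 1 was below 0.8 at 3 days, and 7 and 3 at 10 days. The shares of all measured genes, for this list and the others, were 14.4% and 8.47% at 3 days and 18.2% and 10.6% at 10 days. Lyz2, lysozyme, was past 1.5 at 4538, 3099 and 2815 CPM, a ratio of 0.620 (0.611 to 0.630) at 10 days that was 0.734, 0.753 and 0.684 in the 3 depth bands. Of 25 measured other membrane proteins, 4 were above and 1 below at 3 days, and 3 and 0 at 10 days. Mcoln2, a channel of the same family as Mcoln1, was at 12.7, 7.73 and 14.5 CPM (0.609 (0.465 to 0.795) at 3 days against chow and 1.87 (1.42 to 2.48) between 10 and 3 days).

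Of 22 measured sorting genes, 1 passed the same upper limit and 2 the lower at 3 days, and 2 and 1 at 10 days. The shares of all measured genes past these limits are those given above, here and for the next list. Igf2r, the receptor that brings hydrolases to the lysosome, was at 20.3, 25.3 and 31.0 CPM (1.53 (1.28 to 1.83) at 10 days). Of 20 measured genes that control mTORC1 and TFEB at the lysosome, 1 was above and 3 below at 3 days, and 3 and 3 at 10 days. Tfec, the remaining member of the TFEB family, was at 61.7, 94.1 and 66.8 CPM, highest at 3 days (1.52 (1.39 to 1.68)), and was at 1.37, 1.53 and 1.51 in the 3 bands. Rptor, a subunit of mTORC1, was at 14.1, 9.39 and 9.12 CPM (0.649 (0.490 to 0.853) at 10 days), and Fnip2, a folliculin partner, at 22.9, 15.3 and 26.6 CPM (1.74 (1.43 to 2.12) between 10 and 3 days). Of 19 measured autophagy genes, 16 were above chow at 3 days and 9 at 10 days, against 56.2% and 60% of all measured genes. More than 25% higher were 4 and 2 of them, against 14.4% and 18.2%. In the 3 depth bands 8, 9 and 13 of the 19 were above chow at 3 days, and 10, 9 and 7 at 10 days. Their median log2 ratio was 0.12 at 3 days, -0.004 at 10 days and -0.11 between 10 and 3 days. In the last comparison 4 of the 19 (Ulk1, Atg9a, Atg14 and Wipi2) were below 0.8, against 9.11% of all measured genes.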

How the data were processed

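RNA of sorted liver macrophages was read as single-cell 3' libraries (10x Genomics Chromium v2 kit, per the labels' protocols) from 3 mice, 1 per diet. The deposited matrices hold raw UMI counts for every barcode of the kit. Per the submitters' processing notes, Cell Ranger 2.2.0 was used with GRCm38 and mm10. How the authors called cells, and their annotation release, are not given in the sources used here.

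Barcodes with at least 1000 UMIs, at least 300 genes and at most 10% mitochondrial UMIs were kept as cells. Cells of all libraries were clustered together without batch correction (scanpy 1.11.5, 2000 variable genes, 30 principal components, 15 neighbours, Leiden resolution 0.6, igraph 0.11.9). The 33 genes and the genes of the 6 related lists were left out of the clustering. A cluster was named when at least 3 markers of 1 type were among its 25 leading genes. It was Kupffer-like when its Kupffer markers had a median ratio of 0.5 or more to their level in the pool of cells, unless another type than proliferation reached 3 markers. These naming limits were set after a clustering had been seen. Of 10 clusters 5 were Kupffer-like, and clusters 6 and 7, led by genes of several immune cells, stayed unnamed. Scrublet's automatic threshold marked 0 cells in each library and so had not worked, and no doublets were removed except in an alternative.

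The sums over Kupffer-like cells held 11666791, 12028265 and 8767876 UMIs and were scaled to CPM. With 1 library a group no test was run. Intervals are exact at 95% (Poisson for a level, conditional binomial for a ratio) and cover counting error only. The ratio interval was run on simulated libraries drawn from the chow profile with counting error alone, as the interval itself assumes. Variation between cells, mice or libraries was not simulated, so this says nothing about such differences. Full values were given by rule for genes of a role with the highest mean CPM and for genes with a ratio 25% or more above 1 or at most 0.8 and an interval without 1. In the related lists, genes past 1.5 with such an interval and paralogues of the pump subunits were named. The genes and lists were chosen with earlier results of these data known. The estimated share of free RNA in T and NK-like cells was 9.08%, 8.34% and 10.0%.

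The 60-base stretches shared between genes were counted over the last 500 bases of GENCODE vM21 transcripts. Reverse-strand or same-strand neighbours overlap Atp6v0b, Atp6v1b2, Atp6v1e1, Atp6v1h, Lamp1, Npc1, Hexa, Grn and Glb1, and whether the counting used strand is not given in the sources used here.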

Additional observations from a re-analysis of the deposited data

How the results depend on the processing

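No paired analysis was possible because each diet had 1 library, and no library could be left out. Of 1305 ratios of single genes recomputed under 15 other settings, 147 lay on the other side of 1 from the first value. Among the 55 ratios whose interval excluded 1, 46 of 825 recomputed values did so, in 26 of the 55. An interval without 1 was found for 5 of the 46, all with clusters weighted equally. Those intervals were about as wide, relative to the ratio, as the pooled ones. Small clusters weighed as much as large ones there, so the intervals are likely too narrow. Of the 46, 16 came from cells of 1000 to 2000 UMIs, 15 from clusters weighted equally, 8 from cells of 2000 to 4000 UMIs, 4 from the mitochondrial limit of 5% and 3 from cells of 4000 or more UMIs. Of the ratios first 25% or more above 1 or at most 0.8, with an interval without 1, those that crossed were Atp6v1c1 between 10 and 3 days with the limit of 5% (0.915) and Atp6v1h at 10 days against chow in cells of 1000 to 2000 UMIs (0.991). Over the 15 settings Npc2 at 10 days ran from 0.798 to 0.898 of chow, Atp6v0d1 from 1.08 to 1.28, Psap from 1.04 to 1.49 and Cd68 from 0.673 to 0.971, each on 1 side of 1. Within single clusters, however, Atp6v0d1, Psap and Cd68 lay on both sides of 1. Among the 29 measured genes Mcoln1, Tfeb and Mitf had the fewest UMIs, 280 to 382 per library.

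The number of genes more than 25% higher at 3 days than in chow, 2 as reported, was 1 with a minimum of 2000 UMIs, 4 with the mitochondrial limit of 5% and 4 over every gene with a UMI. It was 0 with clusters weighted equally, in cells of 2000 to 4000 UMIs and in cells of 4000 or more. The number below 0.8 (1 as reported) was 0 with 2000 UMIs, 2 in thinned cells, 2 over every gene with a UMI and 3 in cells of 1000 to 2000 UMIs. At 10 days against chow the number more than 25% higher (3 as reported) was 0 with equal weights and in cells of 2000 to 4000 UMIs and 1 with median-of-ratios scaling. The number below 0.8 (1 as reported) was 0 with the limit of 5% and in cells of 4000 or more UMIs, 2 with median-of-ratios scaling and 6 in cells of 1000 to 2000. Between 10 and 3 days the number more than 25% higher (3 as reported) was 1 over all barcodes, with median-of-ratios scaling and in cells of 1000 to 2000 UMIs. The number below 0.8 (0 as reported) was 2 in cells of 1000 to 2000 UMIs. It was 1 over all barcodes, with 2000 UMIs, with equal weights, in thinned cells, with median-of-ratios scaling, over every gene with a UMI and in cells of 4000 or more. The median log2 ratio at 10 days against chow, 0.17 as reported, was -0.035 with equal weights, -0.010 in cells of 1000 to 2000 UMIs and 0.018 in cells of 2000 to 4000. The depth bands were chosen after the data had been seen, and the cause of each shift was not tested. Median-of-ratios scaling moved the median of all genes by -0.04 at 3 days and -0.07 at 10 days.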
